A study of Caenorhabditis elegans with 6 samples.

Results

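The genes described here make the sperm to oocyte decision in the germline of *Caenorhabditis elegans*: fog-1, fog-2, fog-3, fem-1, fem-2, fem-3, tra-1, tra-2, her-1 and gld-1. They were chosen by gene symbol, and all 17 probe sets that the array platform assigns to these 10 genes were kept, out of 22548 probe sets tested. Of the 10 genes, 5 have 1 probe set and 5 have more than 1. The arrays were Affymetrix expression arrays of total RNA from whole worms at the last larval stage, L4. There were 3 arrays of the mutant alg-1(gk214) and 3 of N2, the wild type strain. ALG-1 is an Argonaute protein that binds microRNAs and represses target mRNAs with them. The mutation was present in every cell of the animal, and the control strain carried no other stated allele. Synchronized cultures of both groups grew at 25 °C on OP50 bacteria, and the labels call the replicates independent without saying how many worms each one held. The labels give no sex for the worms.

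A hermaphrodite first makes sperm, during the last larval stage, and then switches to oocytes for the rest of its life. The decision runs through a chain of inhibitors that ends at TRA-1, a Gli-type zinc finger transcription factor that promotes female fates. The secreted protein HER-1 inhibits the membrane receptor TRA-2 in males. TRA-2 holds back the FEM proteins, and the FEM proteins act with a ubiquitin ligase to remove TRA-1. In the germline, the chain ends at FOG-1 and FOG-3, which are needed for germ cells to become sperm. GLD-1 and FOG-2 let the hermaphrodite make sperm by repressing translation of tra-2 mRNA. Much of this control acts on translation and protein stability, which an mRNA array does not measure.

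Signal is given as the deposited log2 value. Levels of different probe sets are not comparable, so each is compared only between genotypes. Signals summed over a list depend on these levels, since bright probe sets weigh most. Such sums, and differences between probe sets within arrays, are likewise compared only between genotypes. A change is the mutant mean minus the wild type mean, with its standard error (SE) from limma, and a probe set was called when its Benjamini-Hochberg adjusted p over all probe sets tested was below 0.05. Of the 17 member probe sets, 4 were lower and 2 were higher in the mutant, and 11 did not pass. Over all probe sets, 33.7% were called, 18.9% lower and 14.8% higher, so the members' shares, 23.5% and 11.8%, lay near those of the table. Of the calls over all probe sets, 44% were higher; with arrays centred on the bacterial hybridization controls, 68% were. The 4 lower probe sets belong to fog-2, fog-3 and gld-1, and both higher ones belong to tra-1. On 7 of the 17 the mutant and wild type arrays did not overlap, as on 48% of all probe sets. The median change was −0.03 over the member probe sets and −0.05 over all probe sets.

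**Figure D1:**
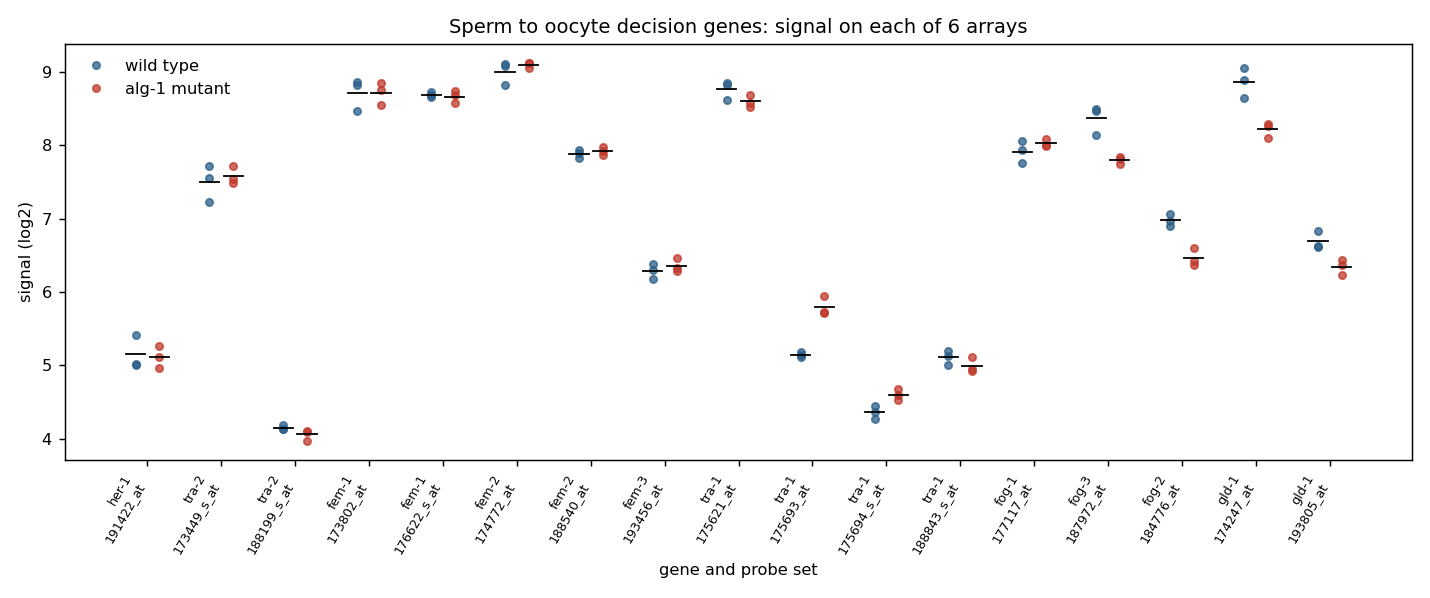
Signal (log2) on each array for the 17 probe sets, ordered from upstream to downstream in the chain, with the RNA regulators last. Points are arrays (blue, 3 wild type; red, 3 mutant) and black lines are group means. The mutant points of fog-3, fog-2 and both gld-1 probe sets lie below all wild type points, and those of tra-1 175693_at and 175694_s_at lie above. Heights of different probe sets are not to be compared.

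Arrays of one genotype resembled each other closely. Pairs of mutant arrays correlated across probe sets at 0.998 or above, pairs of wild type arrays at 0.994 or above, and pairs of unlike genotype at 0.968 to 0.976. Array medians lay between 6.01 and 6.05 log2. The GAPDH control, a measure of RNA integrity, had less 3′ than 5′ signal on every array. Wild type replicate 3 stood apart, with a 3′ minus 5′ difference of −0.58 log2 against −0.14 to −0.23 on the other arrays. Whether its RNA differed in quality was not tested. Without that array, the same numbers of member probe sets were called, 4 lower and 2 higher. The mutated gene was lower in the mutant by 0.73 log2 in its brightest probe set (SE 0.085, limma adjusted p = 0.000245). Of its remaining probe sets, 1 passed (−0.62, adjusted p = 0.00977) and 1 did not (−0.10, adjusted p = 0.748). Where these probes lie with respect to the gk214 lesion was not determined.

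At the top of the chain, her-1 gave no detectable difference. Its only probe set read 4.97, 5.11 and 5.27 log2 in the mutant against 5.01, 5.42 and 5.02 in the wild type. The groups overlapped, and the wild type spread came from replicate 2. The change was −0.04 (SE 0.12, limma adjusted p = 0.851), with a 95% interval from −0.32 to 0.25. Its mean lay at the 37.9th percentile of all probe sets.

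The receptor gene tra-2 was read by a bright and a dim probe set. The bright one, 173449_s_at, read 7.55, 7.48 and 7.71 in the mutant against 7.22, 7.55 and 7.72 in the wild type, and the groups overlapped. Its change of 0.08 (SE 0.13, limma adjusted p = 0.672) had a 95% interval from −0.21 to 0.37. The dim one, 188199_s_at, at the 13.7th percentile, read 4.09, 3.97 and 4.11 in the mutant against 4.13, 4.13 and 4.19. Here the mutant arrays lay below the wild type arrays, as in 28.3% of all probe sets, but the difference of −0.09 (SE 0.071, adjusted p = 0.363) did not pass.

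The 3 fem genes had 5 probe sets, and none passed the threshold. FEM-1 is an ankyrin repeat protein that recruits targets to the ubiquitin ligase. Its probe sets 173802_at and 176622_s_at differed by 0.00 (95% interval −0.27 to 0.28) and −0.03 (−0.19 to 0.14). FEM-2 is a protein phosphatase. Its probe sets differed by 0.10 (−0.11 to 0.30) for 174772_at and by 0.03 (−0.12 to 0.19) for 188540_at. FEM-3 acts with both, and its mRNA is the point at which the switch to oocytes is controlled by FBF proteins. The fem-3 probe set read 6.29, 6.46 and 6.33 in the mutant against 6.38, 6.30 and 6.18 in the wild type. The groups overlapped, with a difference of 0.07 (SE 0.083, limma adjusted p = 0.558, 95% interval −0.12 to 0.26). On all 5 probe sets the mutant and wild type ranges overlapped, and the intervals reach at most 0.30 log2 in either direction.

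The 4 probe sets of tra-1 disagreed. The brightest, 175621_at, which the platform ties to accession M93256, read 8.58, 8.69 and 8.53 in the mutant against 8.83, 8.63 and 8.85 in the wild type. The groups overlapped, and the difference of −0.17 (SE 0.086, limma adjusted p = 0.172) did not pass. The probe set 175693_at, tied to M94130, read 5.73, 5.95 and 5.72 in the mutant against 5.11, 5.18 and 5.14. All 3 mutant arrays lay above all wild type arrays, which was so in 19.7% of all probe sets. Its change of 0.66 (SE 0.083, adjusted p = 0.000397, 1.58-fold) had the smallest p among the members. The platform ties 175694_s_at to the same accession, and this probe set read 4.68, 4.59 and 4.52 in the mutant against 4.27, 4.37 and 4.44, a change of 0.24 (SE 0.077, adjusted p = 0.0430). That call was lost without any one of the arrays except wild type replicate 3, with adjusted p-values up to 0.158. It was also lost when same-numbered arrays were treated as blocks in limma (adjusted p = 0.0700). The last one, 188843_s_at, differed by −0.12 (adjusted p = 0.335).

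The higher tra-1 probe sets were dim, at the 42.6th and 24.4th percentiles, against the 83.0th for the brightest. The change of 175693_at exceeded that of 175621_at by 0.82 log2 within arrays, and the groups did not overlap in this difference. An exact two-sided permutation test gave p = 0.1, the smallest that 3 arrays against 3 allow. This difference and 4 others between probe sets were chosen after the values were known, and adjusted over the 5 this exact p became 0.125. The gene makes more than 1 transcript, and the files do not say which each probe set reads.

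**Figure D2:**
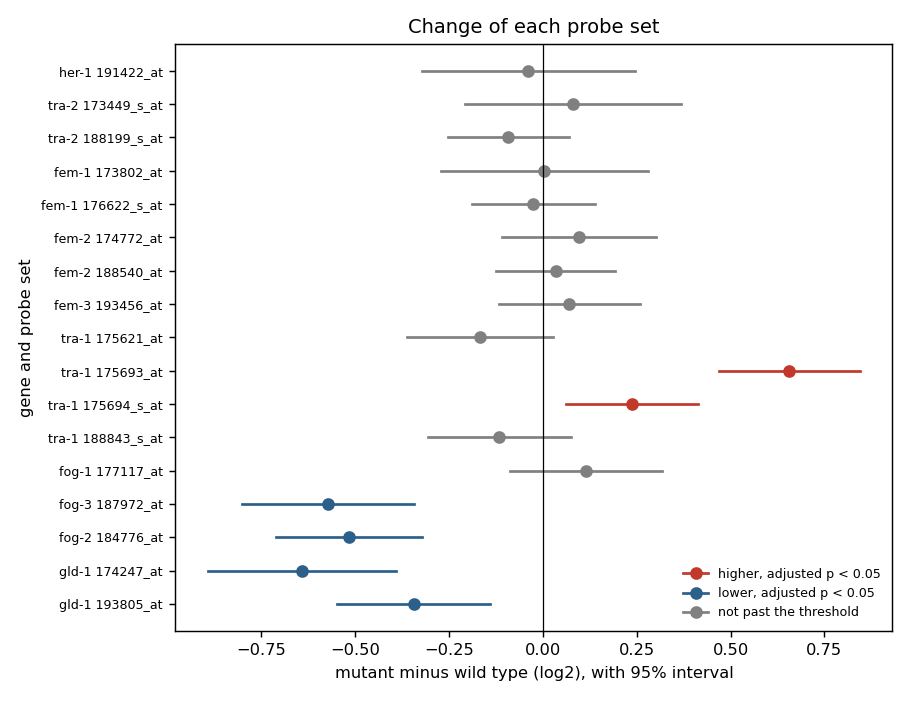
Change in mutant minus wild type (log2) of each probe set, with its 95% interval from limma. Blue marks the 4 lower calls, red the 2 higher calls and grey the 11 probe sets that did not pass. The her-1, tra-2, fem and fog-1 intervals all include 0.

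Of the terminal sperm-promoting genes, fog-3 was called lower and fog-1 was not called. FOG-3, a Tob-family protein that works with FOG-1, had mRNA signals of 7.81, 7.84 and 7.75 in the mutant against 8.14, 8.50 and 8.46 in the wild type. The groups did not overlap, and wild type replicate 1 was the lowest of its group. Group means were 7.80 ± 0.05 and 8.37 ± 0.20 (SD, n = 3 each), and the change was −0.57 (SE 0.10, limma adjusted p = 0.00250, 1.49-fold lower). FOG-1, an RNA-binding protein related to CPEB, gave 7.998, 8.093 and 8.005 in the mutant against 7.757, 7.936 and 8.056 in the wild type. Here the groups overlapped, with a difference of 0.12 (SE 0.089, adjusted p = 0.362, 95% interval −0.09 to 0.32). With arrays centred on the hybridization controls, the fog-1 difference was 0.24 and just missed the threshold (limma adjusted p = 0.0516). Within arrays the change of fog-1 exceeded that of fog-3 by 0.69 log2, without overlap between the groups. The exact permutation p was 0.1, and 0.125 when adjusted over the 5 differences. As 0.1 is the smallest possible, this test could not fall below 0.05 whatever the values, and no conclusion is drawn from it.

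Both genes whose products repress tra-2 translation fell. FOG-2 is an F-box protein that binds GLD-1. Its mRNA read 6.42, 6.60 and 6.37 in the mutant against 6.89, 7.06 and 6.97 in the wild type, with no overlap. The change was −0.52 (SE 0.085, limma adjusted p = 0.00182, 1.43-fold lower). The gene arose by duplication and lies next to its close relative ftr-1 in the WBcel235 gene table. The ftr-1 probe set read 6.91, 6.81 and 6.78 in the mutant against 7.79, 7.54 and 7.53, a change of −0.79 (SE 0.090, adjusted p = 0.000226). The probes' sequences were not used here, so how far each probe set reads the other gene is uncertain. Within arrays the change of fog-1 exceeded that of fog-2 by 0.63 log2, again without overlap. The exact permutation p of 0.1 (adjusted 0.125) was again the smallest possible, so the test could not pass.

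GLD-1, a KH-domain repressor of translation, acts with FOG-2 in the decision and is also needed for germ cells to pass through meiosis as oocytes. The gld-1 probe set 174247_at read 8.27, 8.30 and 8.11 in the mutant against 9.05, 8.90 and 8.64 in the wild type. All mutant arrays were lower, and the change was −0.64 (SE 0.11, limma adjusted p = 0.00216, 1.56-fold lower). The dimmer 193805_at read 6.23, 6.37 and 6.43 in the mutant against 6.61, 6.62 and 6.83, a change of −0.34 (SE 0.090, adjusted p = 0.0170). This call was lost without mutant replicate 1 (−0.29, adjusted p = 0.0756). The sizes of both gld-1 changes differed by −0.30 within arrays, but the groups overlapped in that difference (exact permutation p = 0.3). The calls for fog-2, fog-3, gld-1 174247_at and tra-1 175693_at remained when any single array was left out, with adjusted p-values of at most 0.0163.

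Transcripts of the germline as a whole were lower in the mutant, and in whole-worm RNA a smaller share of germ cells cannot be told apart from less RNA per cell. How far each group had passed through L4 was not measured, so a difference in timing cannot be told apart from these either. Of 21 measured general germline markers, none of which is specific to sperm or oocytes, 18 fell and 0 rose, with a median change of −0.67 log2. Over all 17118 genes, each read from its brightest probe set, 20.1% were lower, 14.4% were higher and the median was −0.06. The summed signal of the germline markers was 12.7 to 12.8 log2 on mutant arrays and 13.4 on each wild type array. Among them htp-2, which encodes a meiotic chromosome axis protein, fell by 0.91 (limma adjusted p = 3.62e-05), and him-3, glh-4 and pgl-1 fell too. The 3 markers that did not pass are named with their values known. They were mes-4 (−0.18, adjusted p = 0.159), mes-2 (−0.14, adjusted p = 0.167) and the Notch receptor gene glp-1 (−0.03, adjusted p = 0.795). The GLP-1 protein keeps germ cells in mitosis at the distal end of the gonad. Whether mitotic germ cells differed between the groups was not measured.

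Beside the markers' median of −0.67, the changes were −0.57 for fog-3, −0.52 for fog-2, −0.64 and −0.34 for the gld-1 probe sets and 0.12 for fog-1. Centring the arrays on the markers' median adds 0.684 log2 to the change of every probe set alike. On that scale 91.7% of all probe sets were higher in the mutant and 2.12% lower. The members' calls on it, listed below with the other alternatives, are therefore not read as results about the members. The fem and tra genes also act outside the germline, and the share of signal from each tissue was not measured.

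**Figure D3:**
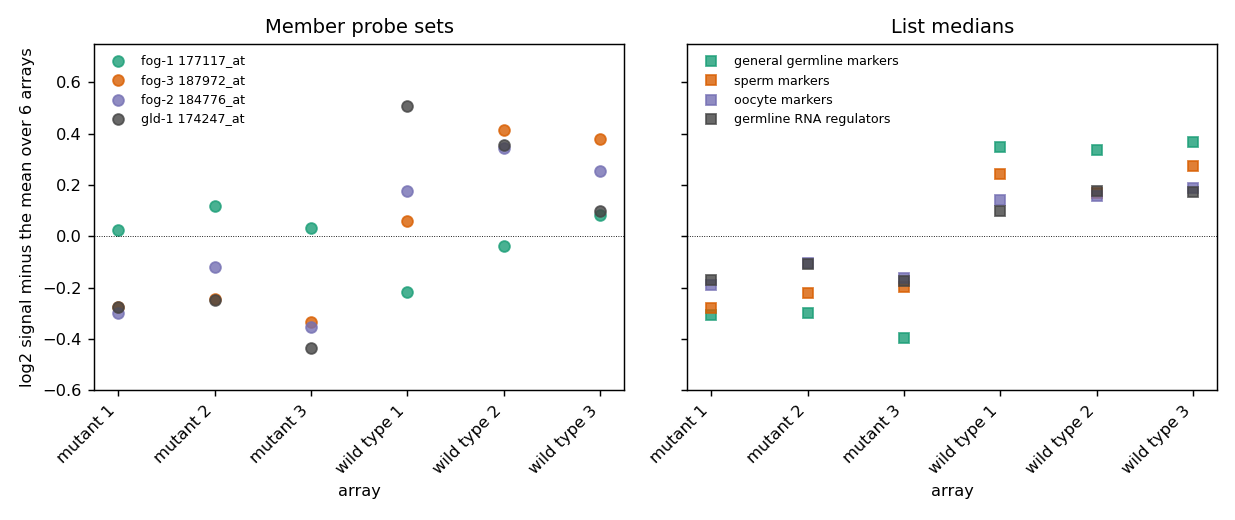
Log2 signal minus the mean over the 6 arrays, by array. The left panel shows single probe sets of fog-1, fog-3, fog-2 and gld-1, and the right panel shows medians over lists of germline markers, sperm markers, oocyte markers and germline RNA regulators. The mutant arrays lie below the wild type arrays for every series except fog-1, whose groups overlap.

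Most measured markers listed for sperm and for oocytes, the outputs of the decision, fell. Of 28 measured sperm markers, 18 fell and 0 rose (median −0.46), and 11 of the 28 were below the 25th percentile of signal. Among all genes 20.1% fell and 14.4% rose (median −0.06). The endings _s_at and _x_at mark probes that match several transcripts. Among 17 sperm markers with a probe set free of both, 9 fell. The summed signal of the 28 was 11.1 log2 on each mutant array and 11.6 to 11.8 on wild type arrays. This sum weighs bright probe sets most. The brightest, swm-1, named with its values known, had means of 9.77 in the mutant and 9.82 in the wild type (limma adjusted p = 0.698). Listed genes were chosen for roles in sperm, and which tissue their RNA came from was not measured. The swm-1 value is therefore not read as that of an mRNA of sperm. The transcription factor gene spe-44, which drives sperm gene expression, read 5.14, 5.67 and 5.45 in the mutant against 7.51, 7.01 and 7.56 in the wild type. No mutant array came near the wild type range, and the change was −1.94 (SE 0.17, limma adjusted p = 5.22e-05, 3.83-fold lower). Within arrays it differed from the change of fog-3 by −1.36, without overlap. The exact permutation p of 0.1 (adjusted 0.125) was the smallest possible, so the test could not pass. The gene cpb-1, which encodes a CPEB protein of spermatogenesis, changed by −1.45 (adjusted p = 8.46e-06). Larger changes were those of gsp-3 (−2.44) and gsp-4 (−2.16), phosphatase genes of sperm whose probe sets may share transcripts.

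Of 20 measured oocyte markers, 12 fell and 1 rose, with a median of −0.31, where 20.1% of all genes fell and 14.4% rose. The translational regulator gene oma-1 changed by −0.81 (limma adjusted p = 3.59e-05), mex-5 by −0.75 (adjusted p = 0.000707), egg-2 by −0.55 and mex-6 by −0.54. The kinase gene mbk-2, singled out with its values known, rose by 0.37 (adjusted p = 0.0109). It is also used outside the germline. Under centring on the hybridization controls, which moves the median of all probe sets from −0.05 to 0.08, 6 oocyte markers were lower. The same centring kept the lower calls of fog-2, fog-3 and gld-1 174247_at, while gld-1 193805_at no longer passed (−0.21, adjusted p = 0.0933).

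The germline RNA regulators that act on the decision fell more often than they rose. Of 23 measured, 11 fell and 0 rose, and the median was −0.26. Among all genes 20.1% fell and 14.4% rose, with a median of −0.06. The PUF protein gene puf-8 changed by −0.76 (SE 0.072, limma adjusted p = 8.14e-05). FBF-1 and FBF-2 are near-identical PUF proteins that repress fem-3 mRNA and so permit oocytes. The fbf-1 probe set read 6.19, 6.11 and 6.03 in the mutant against 6.62, 6.68 and 6.63 in the wild type, a change of −0.54 (SE 0.072, adjusted p = 0.000549). The brightest fbf-2 probe set differed by −0.26 (adjusted p = 0.128), while its other one changed by −0.45 (adjusted p = 0.00127). Both genes may share probe signal, so their changes are uncertain as separate measurements.

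The poly(A) polymerase gene gld-2 changed by −0.43 in its brightest probe set (limma adjusted p = 0.00630). Its other 4 probe sets ranged from −0.27 to 0.34, and none passed. GLD-3, a partner of GLD-2 that also binds FBF, had 3 probe sets, all lower, with changes of −0.42, −0.69 and −0.31. The nos-3 gene, a Nanos relative that acts with FBF, differed by −0.24 in its brightest probe set (adjusted p = 0.0519) and changed by −0.33 in the other (adjusted p = 0.00794). The mog genes are splicing-related and needed to turn from sperm to oocytes. Of 6 measured, 3 fell, where 20.1% of all genes did. These were mog-5 by 0.43 (adjusted p = 0.000948), mog-2 by 0.33 (adjusted p = 0.00756) and mog-4 by 0.32 (adjusted p = 0.0369). The other mog genes did not pass, with −0.23 for mog-1 (adjusted p = 0.0899), −0.23 for mog-7 (adjusted p = 0.0711) and −0.04 for mog-3 (adjusted p = 0.779). All but mog-5 were named with their values known.

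Of 12 measured genes that act upstream of her-1 or beside the somatic chain, 3 rose and 0 fell, with a median of 0.06. Over all genes 14.4% rose. The nuclear receptor gene sex-1, which helps count X chromosomes, rose in each of its 3 probe sets, which may share probes with other transcripts, by 0.34, 0.54 and 0.47 (limma adjusted p-values of 0.0165, 0.000599 and 0.0135). The gene tra-4, which encodes a zinc finger protein that promotes female fate, rose by 0.33 and 0.59 (adjusted p-values of 0.0101 and 0.00592). The sdc-2 gene, which represses her-1 in hermaphrodites, rose by 0.36 in its brightest probe set (adjusted p = 0.0104), while its other probe set differed by 0.42 (adjusted p = 0.0616). At a threshold of 0.01, 0 of the 12 brightest probe sets passed. The calpain gene tra-3, whose protein cleaves TRA-2, differed by 0.04 (adjusted p = 0.767) in its brightest probe set and by 0.34 (adjusted p = 0.0167) in its other. The male switch gene xol-1 lay at the 11.5th percentile and differed by −0.14 (adjusted p = 0.254).

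Of 12 measured genes regulated by TRA-1 in the soma or used as male markers, 3 fell and 0 rose, where 20.1% of all genes fell. Of these 12, 7 lay below the 25th percentile, among them the male neuron genes lov-1, pkd-2, cwp-1, cwp-2 and cwp-3, and the highest stood at the level of percentile 53.3. Their summed signal was 8.44 to 8.47 log2 on mutant arrays and 8.69 to 8.94 on wild type arrays, but the list median per array overlapped between genotypes (exact permutation p = 0.2). The male-promoting gene mab-3 changed by −0.44 (limma adjusted p = 0.00177), fkh-6, a forkhead gene of the somatic gonad, by −0.99 (adjusted p = 0.000794), and ceh-30, a survival factor of male neurons, by −0.27 (adjusted p = 0.0239). The part of males in any of these values was not tested.

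Of 10 somatic gonad markers, 2 fell, near the 20.1% of all genes, and inx-8, a gap junction gene of the gonadal sheath, changed by −1.71 (limma adjusted p = 6.00e-06). The other one, gon-1, lay at the 9.90th percentile and changed by −0.20 (adjusted p = 0.0424). The remaining 8 did not pass. Among these, named with their values known, inx-9 differed by −0.26 (adjusted p = 0.0556), lim-7 by 0.19 (adjusted p = 0.0900) and ceh-18 by 0.16 (adjusted p = 0.184). The median over the list was −0.08. The summed signal of the 10 was 10.4 on each mutant array and 10.4 to 10.5 on wild type arrays. Of 10 muscle markers, 2 fell, also near that share, tni-3 by 0.40 and mup-2 by 0.23, and 0 rose. Of 9 epidermis markers, 7 rose, where 14.4% of all genes did, with sqt-1, rol-6, che-14 and lin-26 among them. The others, bli-1 (−0.59, adjusted p = 0.178) and elt-3 (−0.12, adjusted p = 0.313), did not pass. The summed signal of the 9 was 14.94 to 14.97 in the mutant and 13.91 to 14.15 in the wild type. The brightest, sqt-3, rose by 0.31. These last 3 genes were named with their values known. The part of these values in those of the members was not tested. The share of each tissue and the timing within L4 were not measured, so these values are not read as amounts of tissue.

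**Figure D4:**
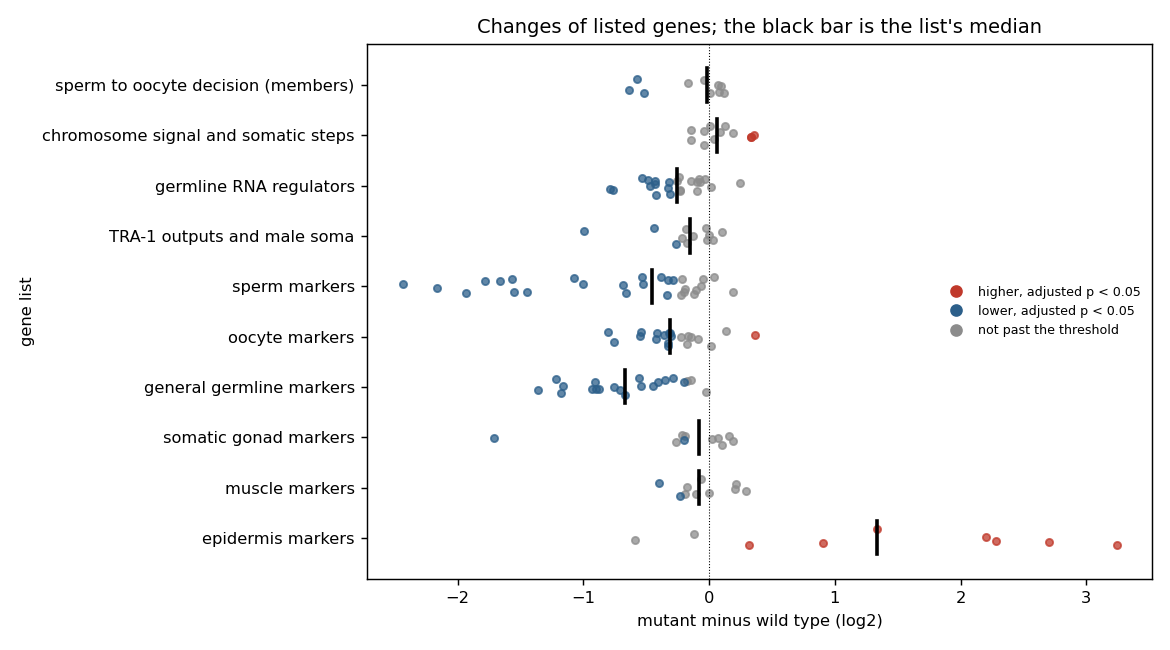
Change in mutant minus wild type (log2) of each listed gene, read from its brightest probe set, by list. Blue and red points passed the threshold, grey points did not, and black bars are list medians. The members' median is −0.02, against −0.67 for general germline markers and −0.46 for sperm markers.

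The probe sets whose pattern over the 6 arrays was most like that of tra-1 175693_at, after each was centred on its own mean, read clec-67, atrn-1 and lrpc-1. Their root mean square differences from it were 0.047, 0.052 and 0.053 log2, among 20762 probe sets of other single genes. All 3 were higher in the mutant, by 0.65, 0.68 and 0.58. The likeness rests on 6 arrays in 2 groups, and all 4 probe sets share the genotype difference.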

How the data were processed

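Whole L4 worms of 2 genotypes were measured with 3 arrays each, from about 5 µg of total RNA per the labels' protocols. The authors deposited log2 values, for which the submitters' processing notes name Affymetrix Power Tools. Its version, the background correction and the normalization are not stated in what was used here. That the scale is log2 was taken from the range of the values (3.14 to 14.9). They were used as deposited, without detection calls, and precision is limited by having 3 arrays per genotype.

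The 77 control probe sets were left out. The platform annotation supplied gene names, brought up to date through RefSeq (WBcel235): 20766 probe sets had 1 symbol, 887 several and 895 none. No sequences or coordinates are given. Genotypes were compared with limma 3.58.1 in R 4.3.3 (lmFit, eBayes), two-sided, Benjamini-Hochberg over 22548 probe sets. Listed genes were read from their brightest single-symbol probe set. The code was tested on simulated data.

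The members, the 9 other lists and the rules were chosen with earlier results of these data known. Named were all members, alg-1, fbf-1, fbf-2, ftr-1, tra-3, gld-2, gld-3, nos-3, xol-1, up to 4 called genes per list with the smallest p, and 3 probe sets most like the top member. As alternatives, arrays were quantile normalized or centred on their medians, on hybridization controls or on germline markers. Others were 2 filters on low signal, a trended robust prior, weighted arrays, only probe sets without the endings _s_at and _x_at, a threshold of 0.01, a gene's mean over its probe sets, a replicate block, and fits without each array.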

Additional observations from a re-analysis of the deposited data

How the results depend on the processing

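Of 260 refits of member probe sets other than by centring on the germline markers, 235 kept their direction and their side of the threshold, 10 lost a call and 15 changed sign. With quantile normalization the signs of uncalled differences changed for fem-1 173802_at (−0.042), fem-2 188540_at (−0.014) and her-1 (0.033), and with array weights for fem-1 173802_at (−0.040). Centring on the hybridization controls shifted uncalled differences to 0.10 (fem-1 176622_s_at), 0.037 (tra-2 188199_s_at), 0.014 (tra-1 188843_s_at) and 0.091 (her-1), and gld-1 193805_at no longer passed (−0.21, adjusted p = 0.0933). Under it 2311 probe sets were lower and 4903 higher. Among the lists it gave 1 higher RNA regulator, 1 higher sperm marker, 6 lower oocyte markers, 2 higher and 1 lower somatic gonad markers, and 2 higher and 0 lower muscle markers. Centring on the germline markers gave 14 higher and 0 lower member probe sets. It turned the sign of gld-1 174247_at (0.042), gld-1 193805_at (0.34), fog-2 (0.17), fog-3 (0.11), tra-1 175621_at (0.52), tra-1 188843_s_at (0.57), fem-1 176622_s_at (0.66), tra-2 188199_s_at (0.59) and her-1 (0.65). These sign changes follow from its construction, which adds 0.684 log2 to every change and made 91.7% of all probe sets higher.

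Counts under filters and thresholds were as follows. Above the median signal, 0 member probe sets were higher, and 7 sperm markers and 1 TRA-1 output or male marker were lower. Above the 25th percentile, 1 member probe set was higher and 1 somatic gonad marker lower. Without the shared endings, 1 member probe set was higher, 2171 probe sets were higher and 2544 lower in all, and 9 sperm, 10 germline, 1 somatic gonad and 0 muscle markers were lower. At a threshold of 0.01, 1 member probe set was higher, with 2213 probe sets higher and 2554 lower in all. The lists then had 0 higher genes of the chromosome signal, 0 higher and 7 lower oocyte markers, 1 lower somatic gonad marker and 1 lower muscle marker. A trended, robust prior gave 4 lower muscle markers, and the mean over a gene's probe sets gave 2 higher somatic gonad markers. The causes were not tested.

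Same-numbered arrays deviated from their group means with correlations of 0.213, 0.126 and 0.0808, against −0.201 to 0.104 for unlike numbers. Each mutant array correlated best with the wild type array of its own number. Wild type replicate 3, however, correlated best with mutant replicate 2 (0.104). The main fit did not take the numbers as pairs, and whether they are pairs was not settled. With the replicate block, 1 member probe set was higher, since tra-1 175694_s_at no longer passed (adjusted p = 0.0700), and 1 somatic gonad marker was lower. Leaving out single arrays gave 1 to 2 higher and 3 to 4 lower member probe sets, with ranges of −0.12 to 0.087 for fem-1 173802_at, −0.063 to 0.020 for fem-1 176622_s_at, −0.057 to 0.19 for tra-2 173449_s_at and −0.11 to 0.096 for her-1. It gave 0 to 1 higher and 1 to 2 lower somatic gonad and muscle markers, 0 to 1 higher RNA regulators and sperm markers, and 0 to 1 lower epidermis markers. Dim probe sets and 3 arrays per genotype limit what could be detected.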
